A study of Mus musculus with 2 samples.

Results

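The genes described here are the 9 that set the activity of the sterol regulatory element binding proteins (SREBPs) and of their carbohydrate counterpart ChREBP: Srebf1, Srebf2, Scap, Insig1, Insig2, Mbtps1, Mbtps2, Mlxipl and Mlx. They were chosen by name, with every probe set kept whose platform annotation gave 1 of these symbols alone. This left 16 probe sets of the 45101 on the array and 9 genes of the 18193 with a probe set of their own. RNA came from the eye cups (retina, pigment epithelium, choroid and sclera) of wild-type and Mfsd2a KO mice at postnatal day 13. For each genotype, equal amounts of RNA from 6 animals made 1 pool, and each pool was read on 1 Affymetrix Mouse 430 2.0 array. The allele of the knockout, the strain and the sexes in each pool are not given in the sources used here.

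SREBPs are transcription factors made as membrane proteins of the endoplasmic reticulum. The escort protein SCAP carries them to the Golgi when sterols are low, and the INSIG proteins hold SCAP back when sterols are plentiful. In the Golgi, the site-1 and site-2 proteases (Mbtps1 and Mbtps2) release the part that enters the nucleus, where SREBP1 mainly drives genes of fatty acid synthesis and SREBP2 mainly those of cholesterol synthesis and uptake. Polyunsaturated fatty acids such as docosahexaenoic acid, which the transporter MFSD2A brings into eye and brain in lysophosphatidylcholine, are known to restrain SREBP1. ChREBP (Mlxipl) responds to sugar metabolites and binds DNA as a pair with MLX.

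Each value is a single intensity on a linear scale, without replicate. The differences are therefore between pools, and no p-value can be given. The transcript of the deleted gene was itself not lower: the 1 probe set of Mfsd2a read 181 on the wild-type array against 244 on the other, which is 0.43 on the log2 scale. Where its probes lie relative to the deletion was not analysed here, so that array is named by its label only (labelled knockout). A gene counted as measured when its brightest probe set reached the floor, the median of its array (94.2 in wild type and 93.4 on the other), on at least 1 array. The central 95% of the 11568 measured genes had log2 differences between -0.21 and 0.23, with a median of 0.014. Probe sets of the same gene had an SD of 0.0886 in log2 difference over the 5201 genes that had 2 or more above the floor, the only error these arrays give. In such bulk RNA, fewer cells of a type and less RNA per cell cannot be told apart.

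Among the regulators, Srebf1 and Insig1 were higher in the pool labelled knockout. Srebf2 was higher by at least 1.2-fold in 1 of its 2 probe sets and only slightly higher in the other. The genes for the escort, the proteases and the second INSIG differed little. The floor was reached by 8 of the 9 members, and 14 of their 16 probe sets passed it. At 1.5-fold, 1 member was higher (Srebf1), where 0.138% of all measured genes were. At 1.2-fold, 2 were higher (Srebf1 and Insig1), where 1.79% of all measured genes were. No member was lower by 1.5-fold or by 1.2-fold, where 0.0864% and 1.17% of measured genes were. The median log2 difference of the 8 measured members was 0.10, and 6 of them were above 0, as were 55.8% of all measured genes.

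**Figure D1:**
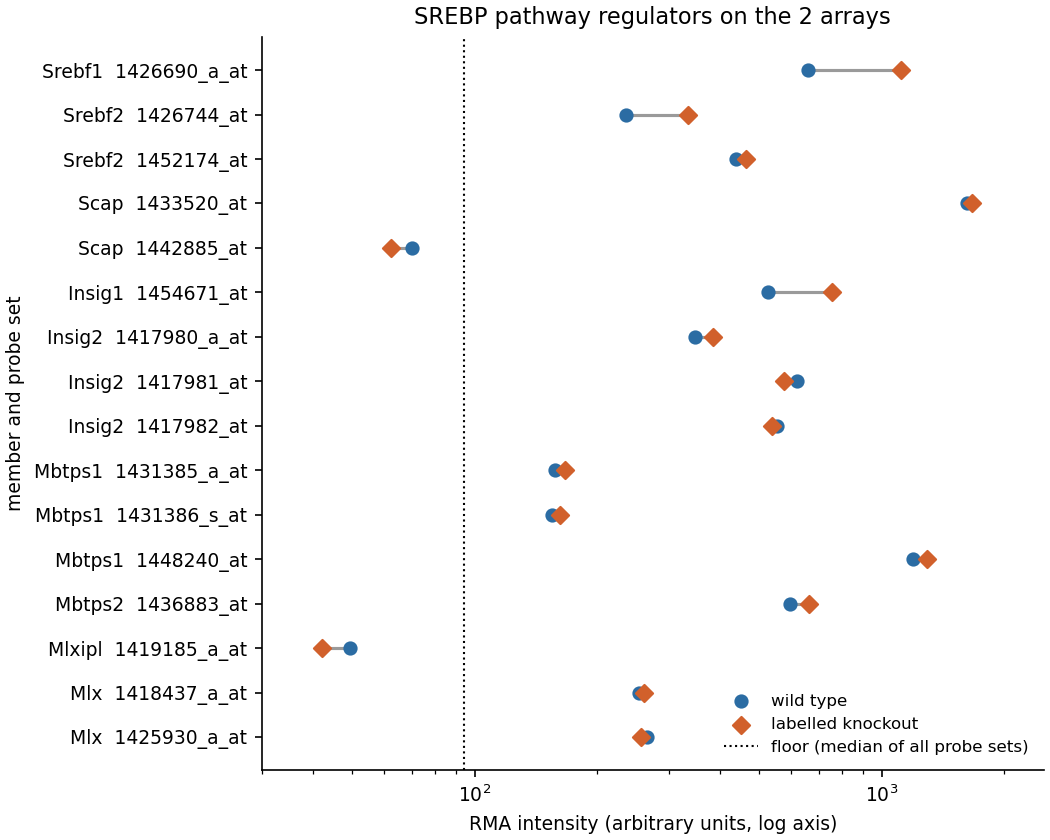
Intensity of each of the 16 member probe sets on the wild-type array (circles) and the array labelled knockout (diamonds), on a log axis, with 1 array per genotype and a line joining the readings of a probe set. Srebf1, Insig1 and the upper Srebf2 probe set show the long lines, while Mlxipl and 1 Scap probe set lie left of the dotted floor.

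Srebf1 encodes SREBP1, and its 1 probe set read 661 in wild type and 1117 on the array labelled knockout. The log2 difference of 0.76 (1.69-fold) was the 11th highest of the 11568 measured genes. Of 4195 probe sets whose mean level lay within 1.5-fold of its own, 1 differed upward by as much, which was Srebf1 itself. The central 95% of those probe sets ran from -0.15 to 0.19. The difference was 0.73 to 0.76 under all the alternative settings tried. With 1 probe set above every floor used, only centring, the loess trend and the pseudocount could change it. The ending _a_at in the name of this probe set marks probes common to several transcripts of the gene. The array thus does not separate the long (SREBP1a) from the short (SREBP1c) form, which start at different first exons.

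Srebf2 encodes SREBP2, and its 2 probe sets gave unlike answers. The dimmer read 235 in wild type and 335 in the pool labelled knockout, a log2 difference of 0.51 (1.42-fold). The brighter read 437 and 464, a log2 difference of 0.084 (1.06-fold). Both were above the floor on both arrays, both were higher in the pool labelled knockout, and both were designed from the same sequence record. The gap between them, 0.43 on the log2 scale, was exceeded by 0.654% of the 5201 genes with several such probe sets. By level the brighter stands for the gene, so Srebf2 is not among the members past 1.2-fold, whereas the mean of both gave 0.30. Of the 6789 probe sets of like level, 12 differed upward by as much as the dimmer set, itself included, and 1442 of 6082 by as much as the brighter. Counted by probe set, 3 of the 14 above the floor were at least 1.2-fold higher (those of Srebf1, Insig1 and 1 of Srebf2), against 1.95% of all probe sets above the floor.

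**Figure D2:**
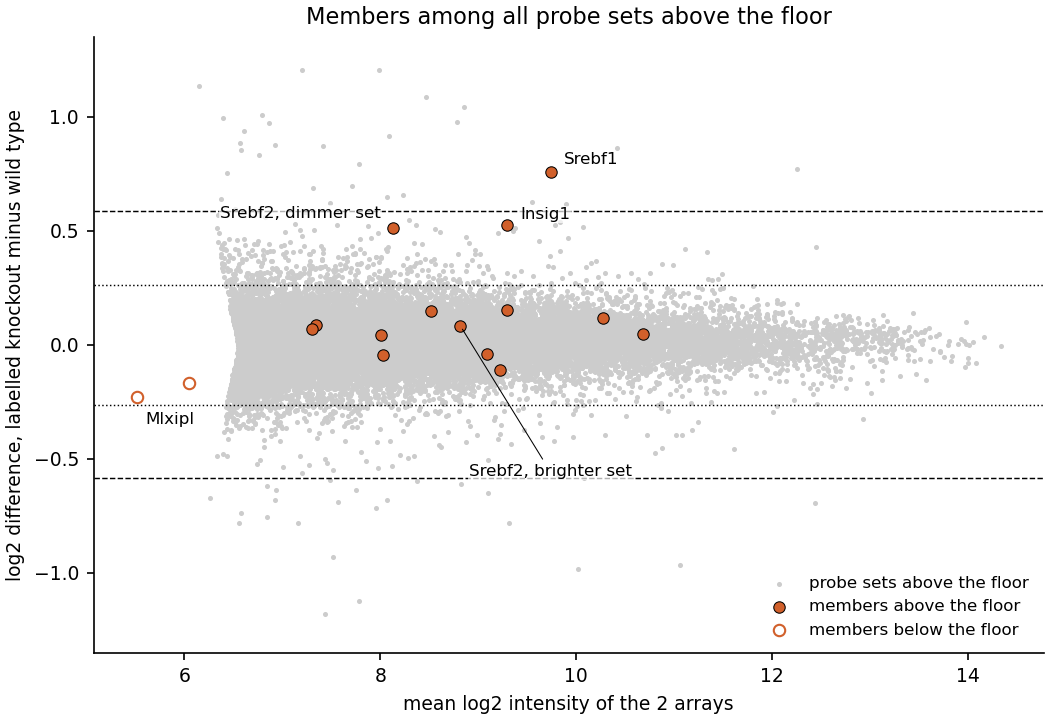
Log2 difference (labelled knockout minus wild type) against mean log2 intensity for all 22912 probe sets above the floor (grey) and for the member probe sets above it (filled) or below it (open). Dashed lines mark 1.5-fold and dotted lines 1.2-fold, and 3 member probe sets, of Srebf1, Insig1 and Srebf2, lie above the upper dotted line.

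Scap encodes the escort of both SREBPs. Its brighter probe set gave 1615 for wild type and 1668 for the pool labelled knockout (log2 difference 0.047). The other probe set was below the floor on both arrays, at -0.17, and pulled the mean of both probe sets to -0.061. Neither value was outside the central 95% of measured genes, and the sign depended on which probe set was used.

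Of the INSIG genes, whose products retain SCAP in the endoplasmic reticulum, Insig1 was higher and Insig2 was not. Insig1, itself a known target of SREBPs and so part of their feedback, read 525 in wild type and 754 in the pool labelled knockout. Its log2 difference of 0.52 (1.44-fold) was the 21st highest of the measured genes, just short of 1.5-fold. Among 5122 probe sets of like level, 7 were as high or higher, itself included. The Insig1 difference rests on 1 probe set, with values of 0.50 to 0.52 over the alternative settings. The choices of probe set and floor could not change it. Insig2, which is not known as a general SREBP target, had 3 probe sets above the floor. They read 620 and 575 (-0.11), 553 and 538 (-0.042), and 347 and 384 (0.15), wild type first. The signs were mixed and the mean of the 3 was -0.0016, so these arrays gave Insig2 no direction.

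The proteases differed slightly, and in 1 direction. Mbtps1, the site-1 protease that makes the first cut, was higher in all 3 of its probe sets, by log2 differences of 0.069, 0.085 and 0.12. Its brightest probe set read 1192 in wild type and 1293 on the array labelled knockout. The probe sets lay close together, 0.048 apart, and 76.4% of genes with several probe sets above the floor had a wider spread. Mbtps2, the site-2 protease that cuts within the membrane, read 596 and 661, a log2 difference of 0.15 (1.11-fold). Both genes lay inside the central 95% of measured genes, with 92.0% of them below Mbtps2 and 86.7% below Mbtps1.

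The ChREBP pair showed no difference of size. Mlxipl, which encodes ChREBP, was the member that did not reach the floor, with 49.4 for wild type and 42.2 for the pool labelled knockout. Its log2 difference was -0.23, at a brightness where differences are uncertain. Mlx, the obligate partner of ChREBP and of MondoA, read 253 and 261 in 1 probe set (0.042) and 265 and 257 in the other (-0.044). The mean of these was -0.0011.

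The promoter windows of the 3 genes with a raised probe set are printed next, because these genes are known to be under SREBP control themselves. RefSeq (build GRCm38.p6) gave 15 windows for the 9 members, and the 250 bases before each annotated start were searched on both strands. Capitals mark TCACCC, the start of the sterol regulatory element (GGGTGA on the other strand), CCAAT, the box bound by the SREBP partner NF-Y (ATTGG on the other strand), and CACGTG, the E-box that SREBPs and the MLX family can bind. Srebf1 has 3 windows, and the one shown is that of the start farthest downstream, at chr11:60210472-60210721 on the minus strand. Insig1 lies at chr5:28071162-28071411 and Srebf2 at chr15:82147019-82147268, both on the plus strand.

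Srebf1: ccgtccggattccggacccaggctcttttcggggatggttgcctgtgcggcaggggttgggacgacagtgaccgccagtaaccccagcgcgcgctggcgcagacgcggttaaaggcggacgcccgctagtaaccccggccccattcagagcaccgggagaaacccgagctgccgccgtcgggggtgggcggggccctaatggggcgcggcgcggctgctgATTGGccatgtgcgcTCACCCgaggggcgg

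Insig1: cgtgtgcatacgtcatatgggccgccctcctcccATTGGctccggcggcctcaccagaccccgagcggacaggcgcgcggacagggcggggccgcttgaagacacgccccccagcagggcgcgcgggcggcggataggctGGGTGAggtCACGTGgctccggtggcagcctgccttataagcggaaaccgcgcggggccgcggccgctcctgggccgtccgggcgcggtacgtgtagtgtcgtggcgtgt

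Srebf2: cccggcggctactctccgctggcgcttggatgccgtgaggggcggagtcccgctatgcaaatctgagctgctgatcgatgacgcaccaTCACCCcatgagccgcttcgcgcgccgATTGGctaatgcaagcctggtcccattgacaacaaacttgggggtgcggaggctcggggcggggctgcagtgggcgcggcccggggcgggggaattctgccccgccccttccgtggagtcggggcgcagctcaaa

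Each of the windows printed held TCACCC and CCAAT in 1 orientation or the other. The other 2 windows of Srebf1 held no such pair, 1 with CCAAT alone and 1 with GC boxes alone. In Srebf1 the first base of TCACCC lay 15 bases before the start and that of the inverted CCAAT box 30 bases before it. In Srebf2 the same elements lay 162 and 135 bases before the start, and in Insig1 they lay 110 and 216 bases before it, with an E-box 101 bases before it. Over all 32851 windows in the table, 13.8% held TCACCC, 33.8% CCAAT and 6.02% CACGTG. Of the 15 windows of the members, 5 held TCACCC, 7 CCAAT and 4 CACGTG. Among the TCACCC windows were 2 of the 3 of Insig2, whose transcript gave no direction. The longer sterol element core TCACNCCAC occurred in 1.05% of all windows and in 1 of the members, a window of Mlxipl. The GC box GGGCGG, bound by the SREBP partner SP1, was in 9 of the 15 windows and in 32.7% of all. TCACCC was chosen after the windows had been seen, and these matches are letters, not shown binding sites. The share of all windows that held both TCACCC and CCAAT was not counted, so the pair cannot be set against a background.

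**Figure D3:**
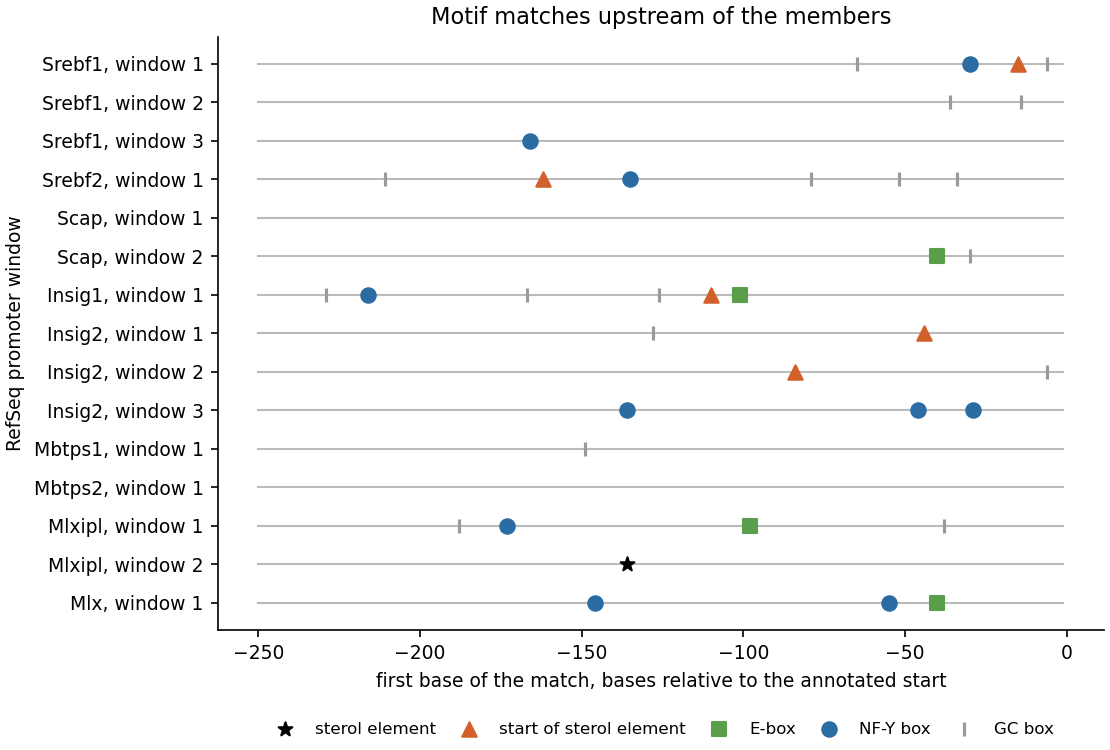
First base of each motif match in the 15 RefSeq windows of the members, in bases relative to the annotated start, with 1 line per window of 250 bases. The first window of Srebf1 and the windows of Srebf2 and Insig1 carry both the start of a sterol element (triangle) and an NF-Y box (circle). The start of a sterol element, TCACCC, was chosen after the windows had been seen.

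Genes that act on the SREBPs beside the members mostly differed little. A list of 26 such genes (COPII coat proteins, ubiquitin ligases and other binding partners) had 24 measured, of which 20 had positive differences and 3 were past 1.2-fold, with 0 lower by that size and a median log2 difference of 0.042. Over all measured genes, 55.8% had positive differences, 1.79% passed 1.2-fold upward and 1.17% downward. The 3 were Stard4, a sterol carrier (252 and 314, 0.32), Paqr3, a Golgi anchor of SCAP (101 and 126, 0.32), and Tmem97, a binding partner of the cholesterol transporter NPC1 (176 and 216, 0.30). Stard4 and Tmem97 are also known targets of SREBPs and stand in the target lists as well. Rnf145, a ligase that acts on SCAP, differed by 0.10. The SEC24 proteins of the COPII coat, which load SCAP into vesicles, differed by 0.049 (Sec24d) to 0.098 (Sec24b).

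The target lists held genes past 1.2-fold on the higher side only, and genes short of it. Over all measured genes, 55.8% had positive differences, 1.79% passed 1.2-fold upward and 0.138% passed 1.5-fold upward. Of 20 measured genes of sterol synthesis and uptake, the SREBP2 targets, 19 had positive differences and 9 of these were past 1.2-fold. Their median was 0.23. The late enzyme Lss, lanosterol synthase, read 275 and 397 (0.53), and Dhcr7, the last reductase of the path, read 551 and 778 (0.50). Cyp51 (0.35) and Idi1 (0.34) followed. Of 23 measured SREBP1 targets of fatty acid synthesis, 17 had positive differences, 7 of them past 1.2-fold and 2 past 1.5-fold, while 5 were negative. The median was 0.13. The desaturases led them, with Scd1 at 166 and 384 (1.21), Scd2 at 3727 and 6351 (0.77), Fads1 at 0.52 and Fads2 at 0.45. Acly, which supplies cytosolic acetyl-CoA, differed by 0.044. In neither list was a gene lower by 1.2-fold.

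The lists for related factors had medians nearer to 0. Each median depends on which genes were placed in a list. Fasn, Scd1 and Scd2, for example, stand in the SREBP1 list alone. Whether the related factors also act on them was not analysed here. For comparison, 55.8% of all measured genes had positive differences, 1.79% passed 1.2-fold upward and 1.17% downward. Liver X receptors (LXRs) with their RXR partners are known inducers of Srebf1. Of 15 genes on their list 11 were measured, and 6 of these were above 0, with a median of 0.0069. That median was -0.0073 when all genes were centred, -0.011 with the loess trend removed and -0.039 with the mean of probe sets. Lpcat3, a phospholipid acyltransferase, was the 1 at least 1.2-fold higher (320 and 402, 0.33), the cholesterol exporter Abca1 differed by 0.24, and Mylip (-0.20) and Smpdl3a (-0.20) were on the other side. The receptor gene Nr1h3 was below the floor, at 62.7 and 55.5, and the receptor gene Nr1h2 had no probe set of its symbol alone. The measured genes of this list thus included neither liver X receptor. The partner Rxra differed by 0.023. Of 10 measured targets of ChREBP and MondoA, 7 had positive differences and 0 were past 1.2-fold upward. They included Tkfc (86.4 in wild type, 0.21) and Slc2a4 (89.2 in wild type, 0.13), which were below the floor in wild type and counted as measured only through the array where they were higher. Klf10, a zinc finger factor, differed by 0.15. Hk2, a hexokinase, was lower (750 and 555, -0.44), and Txnip, the best known MondoA target, differed by 0.11. In the network of MLX, MAX and MYC partners 1 of 9 measured genes passed 1.2-fold, Mycl (96.5 and 223, 1.21). The wild-type value of Mycl was just above the floor of 94.2, so the size of its difference is uncertain. Where Mycl lies relative to Mfsd2a was not analysed here. Max differed by 0.15, Mxd1 by 0.10 and the MondoA gene Mlxip by -0.073.

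**Figure D4:**
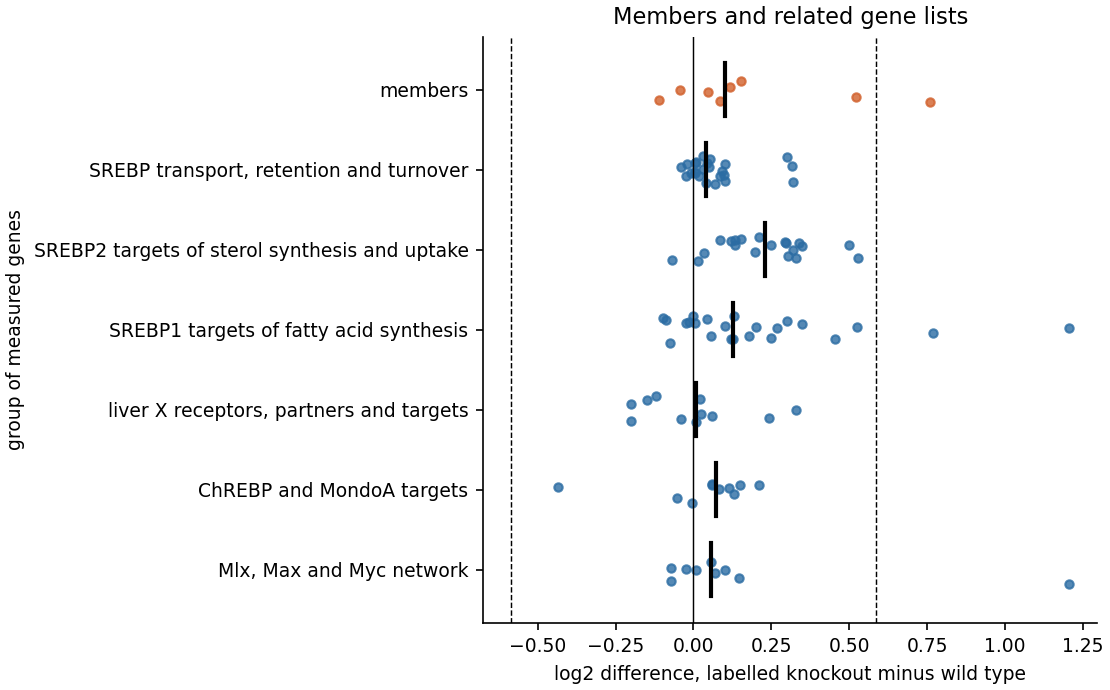
Log2 difference (labelled knockout minus wild type) of each measured gene in the members and in 6 related lists, with vertical jitter, a black bar at each median and dashed lines at 1.5-fold. The medians of the SREBP2 and SREBP1 target lists are 0.23 and 0.13. They lie to the right of those of the liver X receptor list (0.0069) and the ChREBP and MondoA list (0.071). Each median depends on which genes were placed in the list.

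By log2 difference over the 2 arrays, the measured genes most like Srebf1 were Prss56, a serine protease of eye growth (0.75, from 66.5 in wild type, below the floor), Scd2 (0.77) and the Y-linked Eif2s3y (0.65). Those most like Insig1 were Fads1 (0.52), Lss (0.53) and Insm1 (0.51), a zinc finger factor of developing neurons. With a single difference per gene, such likeness says only that the sizes match.

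Markers of several cell types and tissues differed between the same pools. All 7 measured rod markers read within 0.079 of 0, and Rpe65 of the pigment epithelium read 3484 and 3301. Retina and pigment epithelium were thus present in both pools. Microglial markers were above 0 in 7 of 7 measured genes of 8 listed, 6 of them past 1.2-fold (summed intensity 2402 and 2814), and lens markers in 5 of 7 of 10, 1 of them past 1.2-fold (3372 and 3767), where 55.8% of all measured genes were above 0. Corneal markers were below 0 in 6 of 6 of 8 (1536 and 1176) and muscle markers in 5 of 7 of 10 (3687 and 3389). Endothelial markers were below 0 in 7 of 8 (3665 and 3342) and pigment epithelium markers in 6 of 7 of 8 (34916 and 33077). Lower by at least 1.2-fold were 5 corneal, 3 pigment epithelium, 2 muscle and 1 endothelial markers. Of these, 1 corneal and 1 muscle marker passed 1.5-fold. The corneal one, Aldh3a1 (142 and 92.7), was below the floor on the array labelled knockout. It counted as measured only through wild type, where it was higher, and it is part of the corneal counts above. Across all measured genes, 1.79% passed 1.2-fold upward, 1.17% passed it downward and 0.0864% passed 1.5-fold downward. Mueller glia markers were below 0 in 5 of 8 (28314 and 28409). Of the Y-linked genes, Eif2s3y differed by 0.65, and Uty and Kdm5d read 157 and 164 on the array labelled knockout but were below the floor in wild type, so the sizes of their differences are uncertain. The fat cell markers Adipoq, Cidec, Lep and Pck1 and the oligodendrocyte markers Mog, Mag, Mobp, Olig2 and Ugt8a were below the floor on both arrays. Other markers of these lists were above the floor on both arrays: Fabp4 (169 and 160) and Retn (100 and 103) for fat cells, and Mbp (443 and 489) and Cnp (902 and 858) for oligodendrocytes. The sums, 326 and 313 for fat cell markers and 1556 and 1520 for oligodendrocyte markers, came mostly from these genes. The part of these markers in the differences of Srebf1, Insig1 and Srebf2 was not tested, and with 1 pool each the genotype cannot be told apart from the sexes pooled, the dissection or the handling of the arrays.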

How the data were processed

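RNA of 2 pools was labelled and hybridised to 1 array each. The deposited values are intensities on a linear scale, not centred, with array medians of 94.4 and 93.6. The authors used Partek 6.6 and RMA (background correction, equalising of arrays and summary of probes), according to the submitters' processing notes. Their order and settings are not given in the sources used here. RMA makes the differences of dim probe sets smaller and takes away any overall difference between arrays.

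Here log2 differences were taken as labelled knockout minus wild type. Genes were named from the platform annotation (34958 probe sets with 1 symbol, 932 with several, 9211 with none), and RefSeq identifiers of GRCm38.p6 changed 0 symbols. The 64 control probe sets were left out. The probe set with the highest mean stood for a gene. Probe sets of like level were those within 1.5-fold in mean level. With 1 array per genotype no test was made. The number of arrays limits the precision.

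The text names all members, the 4 genes with the largest absolute difference in each related list, the 3 genes nearest to Srebf1 and to Insig1, Mfsd2a, and further genes of the lists chosen for their textbook role after their values were seen. The members and the lists were chosen with earlier results of these data known. List genes without a probe set of their symbol alone were not analysed here. A planned comparison of protein sequences was not run. Alternatives were the mean of probe sets, leaving out _s_at and _x_at probe sets, no floor or the 70th percentile, a loess trend removed (span 0.3), centring on the median, a pseudocount of 32, and sizes of 1.2-fold and 2-fold. The probe set with the largest difference was added after the data were seen. The work was done with statsmodels 0.14.6, pandas 2.3.3 and numpy 2.4.6 under Python 3.11.15, and the counting was tested on simulated data.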

Additional observations from a re-analysis of the deposited data

Results flagged for a closer look

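A probe set annotated to both Yy2 and Mbtps2, which the comparisons leave out because it does not belong to 1 gene alone, gave 57.5 for wild type and 64.9 for the pool labelled knockout (log2 difference 0.17). It came up because it is data outside the main measurement with a value above that of wild type, and it lay below the floor on both arrays.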

How the results depend on the processing

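No paired analysis was possible because there is 1 array for each genotype. The count of 1 member at least 1.5-fold higher became 2 at 1.2-fold and 0 at 2-fold, which follows from the size alone. It was 1 under each of the other alternatives, and the count of members at least 1.5-fold lower was 0 under all of them. Of 64 values of single members under the alternatives, 59 moved by less than the SD of 0.0886 between probe sets of a gene. The other 5 turn on the choice of probe set: Srebf2 went from 0.084 to 0.30 with the mean of its probe sets and to 0.51 with the probe set of the largest difference, Insig2 from -0.11 to -0.0016 and 0.15, and Scap from 0.047 to -0.061 with the mean. Srebf1, Insig1 and Mbtps2 have 1 probe set each and could not change in this way. The other floors and leaving out _s_at and _x_at probe sets changed no value of a measured member. Centring, the loess trend and the pseudocount shifted each only slightly. The 59 of 64 is therefore not a measure of how stable the values are. The median of SREBP2 targets ran from 0.20 with the mean of probe sets to 0.27 at the higher floor, and that of SREBP1 targets from 0.091 to 0.13.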

Other observations

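The promoter windows of the target genes can be set beside those of the members. Of 21 windows of the SREBP2 targets of sterol synthesis and uptake, 17 (81.0%) held CCAAT within 250 bases before the start and 16 (76.2%) held GGGCGG, the GC box, where 33.8% and 32.7% of all windows did. For the 24 windows of SREBP1 targets the counts were 12 and 13 (54.2%). The start of the sterol element TCACCC was in 3 of the 21 and 5 of the 24 windows, against 13.8% of all. Several windows can belong to 1 gene, and windows were not compared at equal base composition, so these shares are descriptions.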
